A study of Mus musculus with 24 samples.

Results

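The enzymes that write, remove or bind methyl marks on DNA and acetyl or methyl marks on histones were followed as 1 group of genes in the hippocampus. Members were all genes whose symbol begins with Dnmt, Mbd, Hdac, Sirt, Kdm, Kmt or Kat and a digit, with Setd and a digit or b, or is Tet1, Tet2 or Tet3. Of 86 symbols that matched, 9 pseudogene and opposite-strand models were set aside and 6 had a mean under 1 CPM (counts scaled to a library total of 1e6), which left 71 of the 51912 genes in the table. Kdm8, at 2.21 CPM, was the member nearest to that threshold, and Kdm4d, at 0.592 CPM, was the nearest gene below it. The de novo DNA methyltransferase gene Dnmt3b, at 0.364 CPM, also fell below, so that 2 DNA methyltransferases remained, Dnmt1 and Dnmt3a. All 71 members passed the low-count filter of every comparison.

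DNA methyltransferases place methyl groups on cytosines, TET dioxygenases oxidise them on the way to their removal, and MBD proteins carry a domain related to one that binds methylated DNA. Acetyltransferases (KAT) add acetyl groups to histone lysines, deacetylases (HDAC) and the NAD-dependent sirtuins remove them, and methyltransferases (KMT, SETD) and demethylases (KDM) do the same for methyl groups. These are roles of the families, and a symbol does not show that each member acts on histones. In the hippocampus several of these enzymes, among them Hdac2, Hdac3, Dnmt3a and Kmt2a, are known for roles in memory formation in mice.

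The tissue came from 12 C57BL/6J mice whose sires had been given nicotine or saline chronically. The libraries formed 8 groups of 3: ventral and dorsal hippocampus of nicotine-sired females, nicotine-sired males, saline-sired females and saline-sired males, with both regions from each animal. Neither the age of the offspring nor the nicotine dose is named in the labels used here. The comparisons ask which genes differ with sire treatment in each sex and region, between the sexes and between the regions. The labels name no treatment of the offspring themselves and no allele or transgene.

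Library totals were 32049770 to 47486547 counts, and the 71 members held 0.275% to 0.323% of them. Each combination of sire treatment and sex carries a title number of its own, which cannot be told apart from those groups, and the 3 mice of a group may share a sire or litter. The p-values therefore measure the spread between these libraries. Against the dorsal libraries, 6 of 7 ventral hippocampus markers were higher and 4 of 5 dorsal markers lower in the ventral ones, as labelled. Markers of choroid plexus, the secretory epithelium beside the hippocampus, were high in 8 libraries, 6 dorsal and 2 ventral (summed level of 10 genes 1511 to 7432 CPM, against 162.4 to 390.2 CPM in the other 16). The dorsal libraries of saline-sired male C and female C had the highest summed ventral marker levels of the 12 dorsal ones (202.4 and 187.1 CPM), and that of nicotine-sired female A had the lowest summed dorsal marker level (212.6 CPM). The antisense ratio, which sets the counts of noncoding genes opposite coding genes against the counts of those coding genes, was over 0.4% in 3 dorsal male libraries, A and B with nicotine-treated sires and B with a saline-treated sire.

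Per length of exon (CPM per kb, CPM here and below scaled by TMM factors), the highest member was Mbd3, a subunit of the NuRD deacetylase complex, with a mean level of 48.3 (range 38.8 to 62.2 over 24 libraries). Hdac11, the single class IV deacetylase, followed at 45.9 (36.2 to 58.0), and these ranges overlap. Sirt2, a mainly cytosolic sirtuin known from myelin, had a level per kb of 23.2, the actin histidine methyltransferase gene Setd3 had 22.4 and the class IIa deacetylase gene Hdac5 had 17.3. At the other end stood Tet1 at 0.330 (0.247 to 0.437), Setd4 at 0.492, Tet2 at 0.728 and Setdb2 at 0.750 per kb. Y-linked Kdm5d, at 0.374 over all libraries, had a mean of 0.747 (0.609 to 0.919) in the 12 male libraries. Within the TET family the order of levels per kb was thus Tet3, Tet2, Tet1, with no overlap of their ranges, and among the class I deacetylases Hdac2, Hdac3, Hdac1, Hdac8, where the ranges of Hdac2 and Hdac3 overlapped. By class, the median level per kb was highest for class I deacetylases among classes of 3 or more members (9.16), and lowest for the TET genes (0.728).

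**Figure D1:**
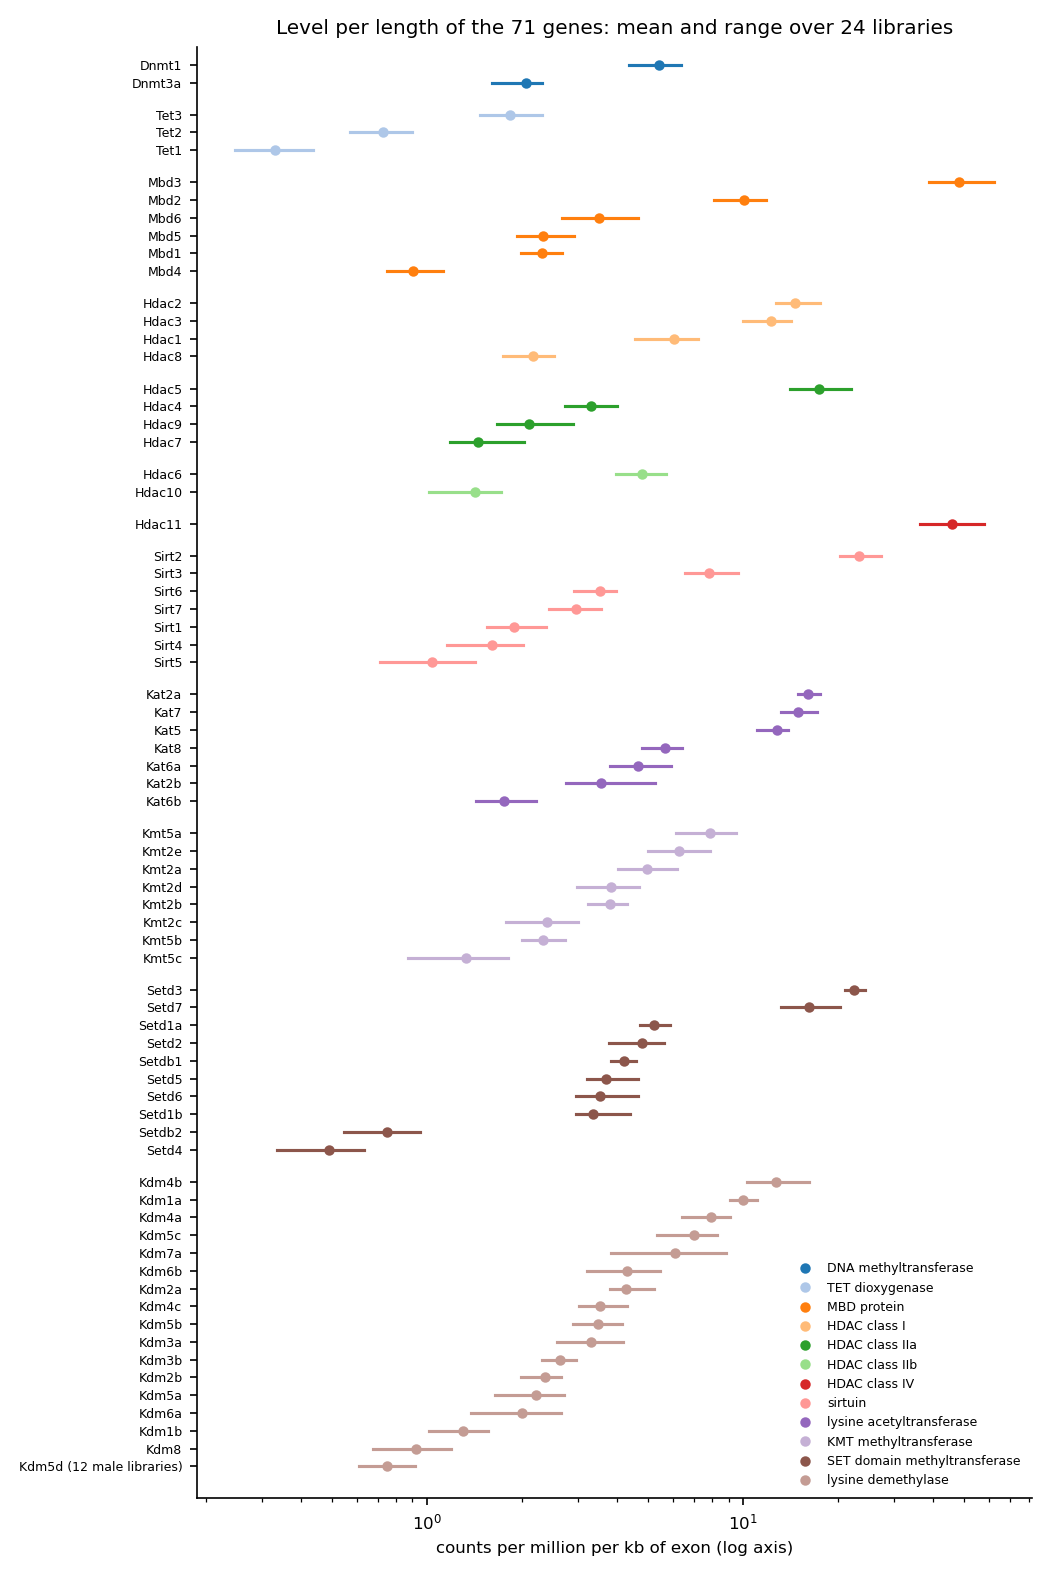
Level of each of the 71 members per length (CPM per kb of exon, log axis), grouped by class; points are means and lines the range over 24 libraries, or over the 12 male libraries for Kdm5d. Mbd3 and Hdac11 stand highest at 48.3 and 45.9, and Tet1 lowest at 0.330.

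Replicates of 1 group lay close together for most members. The within-group SD of log2 CPM was 0.042 for Hdac3 and 0.046 for Setd3, the lowest values, and 0.244 for Setd4 and 0.211 for Setdb2, the highest.

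Sire treatment was associated with few changes among these genes, and those that passed the test lay in male offspring. Averaged over both sexes, edgeR's quasi-likelihood test, Benjamini-Hochberg adjusted over all genes tested, called 0 of 71 members in the dorsal hippocampus, against 0.0784% of all genes, and 0 in the ventral hippocampus, against 1.75%. DESeq2 called 0 members in both as well. At an unadjusted p under 0.05 stood 12 dorsal members, 2 higher and 10 lower (10.8% of all genes), and 6 ventral members (15.7% of all genes). Nearest to the threshold dorsally were Hdac3 (log2 fold change 0.12, edgeR adjusted p = 0.291), Kdm2b (-0.17, edgeR adjusted p = 0.337) and Kdm5c (-0.14, edgeR adjusted p = 0.346). In the ventral hippocampus they were Kmt2e (0.19, edgeR adjusted p = 0.133), Hdac4 (-0.14, edgeR adjusted p = 0.173) and Hdac3 (0.11, edgeR adjusted p = 0.236).

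In the dorsal hippocampus of males, 4 of 71 members were called: Hdac3 rose, and the methyltransferase genes Kmt2d and Kmt2a and the MBD gene Mbd5 fell. Of all genes 1.78% were called there, 0.47% higher and 1.31% lower. Hdac3 (ENSMUSG00000024454) encodes the catalytic subunit of a nuclear corepressor complex. Its dorsal level was 51.1, 52.1 and 49.5 CPM in nicotine-sired males, against 42.6, 42.5 and 40.6 CPM in saline-sired males. In dorsal libraries of females it was 49.2, 50.1 and 48.9 CPM with nicotine-treated sires, against 50.2, 50.2 and 52.0 CPM with saline-treated sires. The saline-sired males were thus the low group, below all 9 other dorsal libraries, and the 2 male groups did not overlap. The log2 fold change was 0.28 ± 0.06 in males (edgeR adjusted p = 0.0294, SE here and below) and -0.03 ± 0.06 in females (edgeR adjusted p = 0.829).

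Kmt2d and Kmt2a encode large histone H3 methyltransferases of the MLL family. In GENCODE on GRCm38, Kmt2d (ENSMUSG00000048154) spans chromosome 15, 98831669 to 98871204, and Kmt2a (ENSMUSG00000002028) chromosome 9, 44803355 to 44881296, both on the minus strand. Kmt2d had 72.3, 65.9 and 74.1 CPM in dorsal libraries of nicotine-sired males, against 93.5, 86.6 and 86.2 CPM in those of saline-sired males. In females it had 76.7, 78.5 and 82.7 CPM with nicotine-treated sires and 73.3, 70.1 and 73.8 CPM with saline-treated sires. Here the saline-sired males were the high group, above all 9 other dorsal libraries. The fold change was -0.33 ± 0.06 on the log2 scale in males (edgeR adjusted p = 0.0258) and 0.14 ± 0.06 in females (edgeR adjusted p = 0.372). Kmt2a had 87.6, 71.8 and 71.8 CPM in dorsal libraries of nicotine-sired males, against 99.4, 94.0 and 102.6 CPM in saline-sired males. Its 3 saline-sired male libraries again lay above the other 9, and the A animals of both nicotine-sired groups were nearest to them. The log2 fold change was -0.36 ± 0.08 (edgeR adjusted p = 0.0418). Mbd5 (ENSMUSG00000036792, chromosome 2, 48949508 to 49325405, plus strand), whose human counterpart is linked to intellectual disability, had 41.2, 38.9 and 44.2 CPM in nicotine-sired males, against 47.4, 52.3 and 57.4 CPM in saline-sired males. The 2 groups of males did not overlap, and the log2 fold change was -0.34 ± 0.07 (edgeR adjusted p = 0.0395).

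The promoters of the 3 genes that fell together in dorsal males are shown because DNA methylation acts at CG pairs, which stand in capitals. Each is the RefSeq window of 300 bases on GRCm38.p6, 250 before and 50 after the start, read on the strand of the gene: chr9:44881240-44881539 (minus) for Kmt2a, chr15:98871156-98871455 (minus) for Kmt2d and chr2:48949258-48949557 (plus) for Mbd5.
Kmt2a: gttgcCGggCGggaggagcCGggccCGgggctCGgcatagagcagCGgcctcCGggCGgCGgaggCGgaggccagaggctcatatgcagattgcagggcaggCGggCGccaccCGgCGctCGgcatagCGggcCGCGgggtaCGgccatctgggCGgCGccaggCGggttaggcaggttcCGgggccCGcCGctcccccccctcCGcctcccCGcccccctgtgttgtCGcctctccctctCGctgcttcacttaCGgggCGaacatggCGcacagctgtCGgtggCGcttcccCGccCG
Kmt2d: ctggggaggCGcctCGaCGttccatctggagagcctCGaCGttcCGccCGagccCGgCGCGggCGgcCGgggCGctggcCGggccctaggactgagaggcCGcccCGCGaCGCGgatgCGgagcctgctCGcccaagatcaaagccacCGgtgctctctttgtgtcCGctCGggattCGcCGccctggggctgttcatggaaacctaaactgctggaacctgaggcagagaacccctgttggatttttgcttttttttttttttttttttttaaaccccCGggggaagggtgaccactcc
Mbd5: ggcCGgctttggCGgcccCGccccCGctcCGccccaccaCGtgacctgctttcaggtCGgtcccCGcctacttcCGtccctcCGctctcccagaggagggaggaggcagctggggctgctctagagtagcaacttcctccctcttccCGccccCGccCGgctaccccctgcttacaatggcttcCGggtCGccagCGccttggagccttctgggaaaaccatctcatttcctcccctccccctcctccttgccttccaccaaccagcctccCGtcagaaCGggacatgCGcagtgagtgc
They hold 36, 27 and 19 CG pairs, counted as the letters CG, which read the same on both strands. Of the 71 members 57 had such a window, with a median of 21 CG pairs, and 45 of them (78.9%) held 15 or more. Over all 32851 windows the median was 7 and 34.6% held 15 or more. Those windows were not limited to genes expressed here, while every member has a mean of 1 CPM or more. The shares are therefore not like for like and do not show a trait of these enzymes. The members ranged from 0 CG pairs at Hdac9 and Kdm4c to 65 at Kdm7a. These are letters of the reference, and methylation was not measured here.

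Among members that were not called in dorsal males, Setd7 (-0.33 ± 0.08, edgeR adjusted p = 0.0506), Kmt2c (-0.36 ± 0.09, edgeR adjusted p = 0.0546) and Kdm5c (-0.28 ± 0.07, edgeR adjusted p = 0.0632) came nearest. The maintenance methyltransferase gene Dnmt1 had a log2 fold change of -0.29 ± 0.10 there (edgeR adjusted p = 0.166) and Dnmt3a one of -0.05 ± 0.09 (edgeR adjusted p = 0.822). The dorsal levels of Dnmt1 averaged 33.5 ± 1.46 CPM in nicotine-sired males and 40.9 ± 3.69 CPM in saline-sired males (SD, n = 3 each). Tet1, Tet2, Tet3, Hdac1, Hdac2, Hdac5 and Sirt1 had log2 fold changes between -0.08 (Tet1) and 0.10 (Hdac1). Hdac4 was lower, with a log2 fold change of -0.32, an unadjusted p under 0.05 and no call. It had 43.9, 43.5 and 43.1 CPM in nicotine-sired males, against 53.2, 48.2 and 60.9 CPM in saline-sired males. At an unadjusted p under 0.05, 23 members (32.4%) differed in dorsal males, 3 higher and 20 lower, against 17.6% of all genes, 8.06% higher and 9.52% lower. The 20 included 4 of 8 KMT genes, 4 of 7 acetyltransferase genes and 5 of 17 demethylase genes, while the 3 higher ones were Hdac3 and the sirtuin genes Sirt2 and Sirt5. All 8 KMT genes had negative dorsal fold changes in males (median -0.13), and 6 of them had positive ones in females (median 0.08), with 0 of the 8 called in females.

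**Figure D2:**
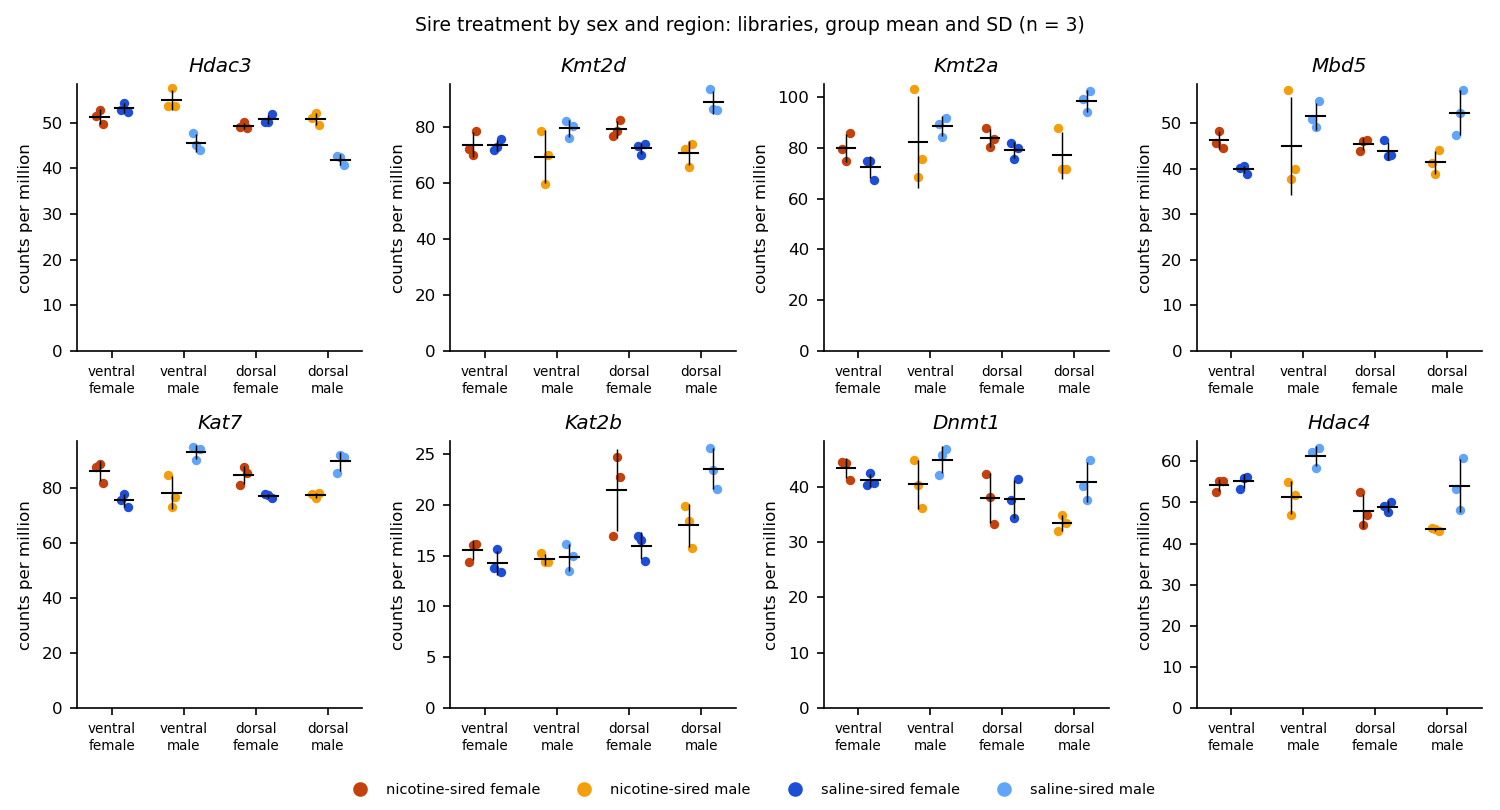
Level in CPM of 8 members by region and sex, nicotine-sired left of saline-sired; points are libraries, bars the mean and SD of 3. In dorsal males Hdac3 is high at 49.5 to 52.1 with nicotine-treated sires, against 40.6 to 42.6 with saline-treated sires, while Kmt2d runs the other way.

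Long genes made up most of the members with lower levels in dorsal males. Of the 36 members at or above the median exon length of 6703 bp, 16 (44.4%) were lower and 0 higher at an unadjusted p under 0.05, and their median log2 fold change was -0.17. Of the 35 shorter members, 4 (11.4%) were lower and 3 higher, with a median of 0.04. Over all genes with a mean of 1 CPM or more, 19.8% of the 3756 that long were lower (median -0.09), against 7.42% of the 11677 shorter ones (median 0.03). Kmt2d (19931 bp), Mbd5 (19632 bp) and Kmt2a (16670 bp) are among the 13 members of 15 kb or more. Of these 13, 38.5% were lower (median -0.13), against 30.8% of all 399 genes that long (median -0.15). The part of length in these differences was not tested.

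**Figure D3:**
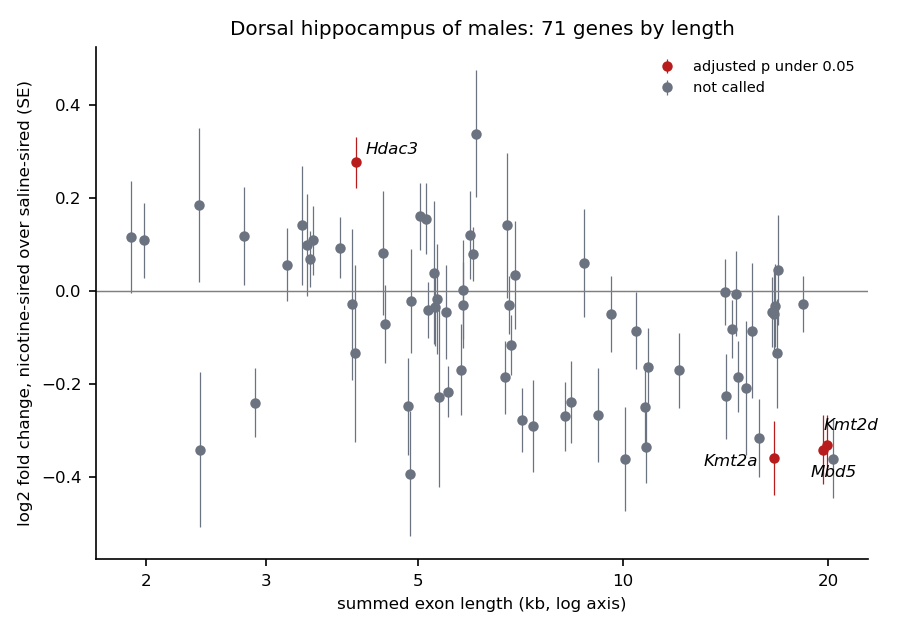
Log2 fold change of each member in dorsal males, nicotine-sired over saline-sired, with its SE, against exon length (kb, log axis); red marks the 4 called members. Points to the right lie mostly below 0, with a median of -0.17 among the 36 longer members and 0.04 among the 35 shorter ones.

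In the same dorsal male libraries the antisense ratio was 0.418%, 0.444% and 0.211% in nicotine-sired males, against 0.213%, 0.434% and 0.185% in saline-sired males. With this ratio as a covariate 0 members were called in dorsal males, with edgeR adjusted p from 0.068 (Kmt2d) to 0.0983 (Kmt2a). The log2 fold changes in that fit were 0.26 for Hdac3, -0.36 for Kmt2a, -0.31 for Kmt2d and -0.32 for Mbd5. Hdac3 did not pass when libraries were scaled by their totals only (0.22, edgeR adjusted p = 0.0848) or without a filter on low counts (0.28, edgeR adjusted p = 0.0517). Kmt2a and Mbd5 did not pass when the spread was estimated from all 24 libraries (edgeR adjusted p = 0.0708 and 0.0864). Hdac3 and Kmt2d lost their calls without any 1 of the 6 dorsal male libraries (largest edgeR adjusted p 0.0995 and 0.107), and held without any 1 of the 6 female libraries. Mbd5 was called only without nicotine-sired female A, saline-sired female C or saline-sired male A in turn, and Kmt2a only without nicotine-sired female A or nicotine-sired male A (largest edgeR adjusted p 0.154 and 0.185). Fold changes over these refits ran from -0.36 to -0.28 for Kmt2d, -0.40 to -0.28 for Mbd5 and -0.45 to -0.30 for Kmt2a, and from 0.25 to 0.30 for Hdac3, on the log2 scale. Of the dorsal cell type markers in males, the 8 oligodendrocyte genes had a median log2 fold change of 0.19 with 0 called, and the 10 choroid plexus genes one of -0.56 with 0 called. The 7 ventral hippocampus markers had a median of -0.76, again with 0 called. Of 7 blood cell genes 2 were lower, though the median of that list was 0.40. Of 7 astrocyte genes 1 was lower, and 1 of 8 endothelial and 1 of 7 microglia genes were higher. Medians were -0.29 for dentate granule cells, 0.37 for dorsal hippocampus, 0.10 for neurons and -0.18 for oligodendrocyte precursors, with 0 called in each. In bulk tissue fewer cells of a type and less RNA per cell cannot be told apart.

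In the ventral hippocampus of males 1 of 71 members was called, Hdac3, against 3.21% of all genes. Its ventral level was 53.8, 57.6 and 53.8 CPM in nicotine-sired males, against 47.8, 45.0 and 44.1 CPM in saline-sired males. Ventral libraries of females had 51.4, 52.9 and 49.8 CPM with nicotine-treated sires, against 52.8, 54.4 and 52.4 CPM with saline-treated sires. As in the dorsal libraries of the same animals, the saline-sired males lay below the other 9. The log2 fold change was 0.27 ± 0.06 (edgeR adjusted p = 0.0246). The class IIa deacetylase gene Hdac4 (-0.26 ± 0.07, edgeR adjusted p = 0.0551) and the acetyltransferase gene Kat7 (-0.25 ± 0.07, edgeR adjusted p = 0.0617) came next and did not pass. Kmt2d, Kmt2a and Mbd5 had ventral log2 fold changes of -0.19 ± 0.09, -0.10 ± 0.12 and -0.20 ± 0.12 in males, with edgeR adjusted p of 0.293, 0.744 and 0.47. The antisense ratio was 0.429%, 0.372% and 0.479% in ventral libraries of nicotine-sired males, against at most 0.310% in the other 9. With it as a covariate the log2 fold change of Hdac3 was 0.39 ± 0.19 and the edgeR adjusted p 0.811. The ratio nearly marks the nicotine-sired males in these libraries. That fit therefore cannot separate the ratio from the group, and the call it ends says little. The call of Hdac3 was also lost when male B or C of either sire treatment was left out, with edgeR adjusted p up to 0.121. Of the ventral markers in males, 3 of 8 endothelial genes were higher and 1 lower. Of 7 blood cell genes 2 were higher and 2 lower, and 2 of 7 microglia genes were higher. Of 7 astrocyte genes 1 was higher and 1 lower, and 1 of 8 oligodendrocyte genes was higher. The part of these cells in the call of Hdac3 was not tested.

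In female offspring 0 of 71 members were called in either region, where edgeR called 0.0314% of all dorsal and 0.0312% of all ventral genes, and DESeq2 called 0 members too. At an unadjusted p under 0.05 stood 11 dorsal and 10 ventral members, against 13.3% and 13.9% of all genes. Dorsally the smallest p-values belonged to Setd6 (-0.44 ± 0.12, edgeR adjusted p = 0.202), Kat2b (0.43 ± 0.13, edgeR adjusted p = 0.231) and Hdac11 (-0.19 ± 0.07, edgeR adjusted p = 0.265). Ventrally they belonged to Mbd6 (-0.44 ± 0.12, edgeR adjusted p = 0.159), the sirtuin gene Sirt7 (-0.31 ± 0.10, edgeR adjusted p = 0.206) and Kat7 (0.19 ± 0.07, edgeR adjusted p = 0.251).

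The treatment difference itself differed between females and males for Kmt2d, Kat7 and Kat2b in the dorsal hippocampus, 3 of 71 members, all 3 with a positive difference, against 2.24% of all genes (1.39% positive). Kat7 (ENSMUSG00000038909, chromosome 11, 95274259 to 95310246) encodes an acetyltransferase also named HBO1. Its dorsal level was 81.1, 87.8 and 85.7 CPM in nicotine-sired females, against 77.9, 77.6 and 76.5 CPM in saline-sired females. In males it was 77.9, 76.4 and 78.1 CPM with nicotine-treated sires, against 85.8, 92.2 and 91.6 CPM with saline-treated sires. Within each sex the treatment groups did not overlap, and their order was opposite in the sexes. The female minus male difference of log2 fold changes was 0.36 ± 0.08 (edgeR adjusted p = 0.036).

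Kat2b (ENSMUSG00000000708, chromosome 17, 53566861 to 53672720) encodes the acetyltransferase PCAF. Its dorsal level was 16.97, 24.7 and 22.8 CPM in nicotine-sired females, against 16.95, 16.6 and 14.5 CPM in saline-sired females. Dorsal libraries of males had 19.9, 18.4 and 15.7 CPM with nicotine-treated sires, against 25.7, 23.5 and 21.6 CPM with saline-treated sires. Nicotine-sired female A lay with the saline-sired females, and the groups of males did not overlap. The difference of log2 fold changes was 0.82 ± 0.19 for Kat2b (edgeR adjusted p = 0.0454) and 0.47 ± 0.09 for Kmt2d (edgeR adjusted p = 0.0239). Kmt2a (0.45 ± 0.11, edgeR adjusted p = 0.0557) and Hdac3 (-0.31 ± 0.08, edgeR adjusted p = 0.0585) did not pass for this difference. Of the markers, 2 of 8 neuron genes had a called positive difference and 1 a negative one. So did 1 of 7 blood cell and 1 of 8 endothelial genes, positive, and 1 of 7 microglia genes, negative. Choroid plexus and ventral hippocampus genes had medians of 2.81 and 1.14, with 0 called. The part of these cells was not tested.

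In the ventral hippocampus Kat7 was the 1 member called for the difference between the sexes, against 1.07% of all genes. It had 87.8, 88.9 and 82.1 CPM in ventral libraries of nicotine-sired females, against 75.6, 78.1 and 73.2 CPM in saline-sired females. In males it had 85.0, 73.3 and 76.8 CPM with nicotine-treated sires, against 95.1, 90.2 and 94.4 CPM with saline-treated sires. The order of the groups was that of the dorsal libraries of the same animals, with no overlap within either sex. The difference of log2 fold changes was 0.44 ± 0.10 (edgeR adjusted p = 0.0432). Hdac3 (-0.32 ± 0.09, edgeR adjusted p = 0.0995) and Sirt5 (-0.66 ± 0.19, edgeR adjusted p = 0.115) followed and did not pass. When the mean log2 CPM of the choroid plexus markers entered the fit, Kat7 and Kat2b did not pass (edgeR adjusted p = 0.055 for dorsal Kat7, 0.0797 for ventral Kat7 and 0.0503 for Kat2b), and Kmt2d did. The differences of log2 fold changes in that fit were 0.36 for dorsal Kat7, 0.48 for ventral Kat7 and 0.68 for Kat2b. Dorsal Kat7 also did not pass without a filter on low counts (0.34, edgeR adjusted p = 0.0816), nor ventral Kat7 with scaling by library totals only (0.46, edgeR adjusted p = 0.0665). Of the refits without 1 library, Kat7 was called in 1 of 12 in each region, without nicotine-sired female A dorsally and without nicotine-sired male A ventrally, with edgeR adjusted p up to 0.119 and 0.131. Dorsally, Kat2b was called in 2 of 12, without nicotine-sired female A or saline-sired male C (up to 0.119). Kmt2d was called in 5 of 12 and lost its call without saline-sired female B, nicotine-sired female C, saline-sired male A or B, or any nicotine-sired male (edgeR adjusted p up to 0.096).

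Saline-sired males stood apart from all 9 other dorsal libraries for 11 members (15.5%), against 5.59% of all genes. They were above for Kdm3a, Kdm7a, Kmt2a, Kmt2c, Kmt2d and Mbd5, and below for Hdac3, Kat2a, Kat5, Sirt5 and Sirt7. Nicotine-sired males stood apart for 3 members (4.23%), below all others for Hdac4, Kdm5c and Kdm6a, against 2.02% of all genes. Of these, Kdm5c and Kdm6a are X-linked and were also called lower in males than in females dorsally, over both sire treatments. In the ventral hippocampus the saline-sired males stood apart for Hdac4, Kat7 and Hdac3 (4.23% of members, against 5.07% of all genes). The saline-sired females did so for 4, above for Hdac6, Sirt3 and Sirt7 and below for Kmt2e (5.63% of members, against 4.02% of all genes). The female and male treatment comparisons do not share libraries within a region, but each enters the difference between the sexes.

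A difference in treatment between the regions was called for 0 of 71 members and 0.0% of all genes by edgeR's quasi-likelihood test, and DESeq2 called 0 members too. At an unadjusted p under 0.05 stood 0 members and 4.76% of all genes. The smallest p-values belonged to Sirt2 (-0.14 ± 0.07), Kmt5c (-0.31 ± 0.15) and Sirt7 (-0.16 ± 0.08), each with an edgeR adjusted p = 0.881.

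The members, like all genes, differed far more often between the regions than with sire treatment. The fit used here has no term for the animal, and a fit with the animal as a block is given further below. In the ventral over dorsal comparison 27 of 71 members (38.0%) were called, 8 higher and 19 lower, against 29.2% of all genes, 14.3% higher and 14.9% lower. Among the erasers of histone methylation 6 of 17 demethylase genes were lower and 0 higher. Kdm7a, a demethylase gene of the PHF8 family, had the smallest p. Its level was 38.5, 51.4 and 61.6 CPM (lowest, median, highest) in ventral libraries, against 55.6, 69.9 and 88.9 CPM in dorsal libraries. The ranges overlapped, but Kdm7a was lower ventrally in all 12 animals, and its log2 fold change was -0.50 ± 0.06 (edgeR adjusted p = 4.34e-06). Kdm4c (-0.24 ± 0.05), Kdm4b (-0.22 ± 0.06) and Kdm6b (-0.20 ± 0.05) fell as well, with edgeR adjusted p from 0.000344 to 0.00494, and so did Kdm3b (-0.13) and Kdm6a (-0.19).

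Deacetylase genes went in both directions. Hdac11 had 178.1, 192.9 and 223.4 CPM in ventral libraries (lowest, median, highest), against 139.4, 158.0 and 191.2 CPM in dorsal libraries. Every animal had more Hdac11 ventrally, and the log2 fold change was 0.27 ± 0.03 (edgeR adjusted p = 4.4e-06). The X-linked Hdac6, which deacetylates tubulin, had 27.9, 30.4 and 33.3 CPM in ventral libraries, against 23.1, 24.7 and 30.3 CPM in dorsal libraries. Hdac6 too was higher ventrally in 12 of 12 animals, by 0.27 ± 0.04 on the log2 scale (edgeR adjusted p = 1.35e-05). Hdac4 (0.19 ± 0.04) and Hdac3 (0.09 ± 0.03) rose and Hdac2 (-0.17 ± 0.04) fell, each in the same direction in 12 of 12 animals, with edgeR adjusted p of 0.000602, 0.0102 and 0.000669. Of the sirtuins, Sirt2 (-0.17 ± 0.03), Sirt1 (-0.18 ± 0.05) and Sirt7 (-0.12 ± 0.04) fell, and Sirt5 (0.24 ± 0.07) and Sirt3 (0.13 ± 0.04) rose. Hdac1 and Hdac5 did not pass, with Hdac5 at 0.14 ± 0.05 (edgeR adjusted p = 0.0546).

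Among writers of acetylation, Kat2b fell and Kat5 rose. Kat2b had 13.4, 14.7 and 16.2 CPM in ventral libraries, against 14.5, 19.2 and 25.7 CPM in dorsal libraries. Its ventral libraries spanned a narrower range than the dorsal ones, all 12 animals were lower ventrally, and the log2 fold change was -0.40 ± 0.06 (edgeR adjusted p = 2.65e-05). Kat5 had a log2 fold change of 0.12 ± 0.03 (edgeR adjusted p = 0.00675), and Kat6a and Kat6b fell by 0.16 and 0.17. All 8 KMT genes had negative ventral over dorsal fold changes, of which 2 passed: the histone H4 methyltransferase genes Kmt5c (-0.43 ± 0.08, edgeR adjusted p = 0.000207) and Kmt5a (-0.24 ± 0.04, edgeR adjusted p = 0.000244). None of the 10 SETD genes passed by edgeR, with 1 at an unadjusted p under 0.05.

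In the DNA methylation machinery the maintenance enzyme gene Dnmt1 rose and the oxidase gene Tet3 fell. Dnmt1 had 36.2, 42.4 and 47.0 CPM in ventral libraries, against 32.1, 37.7 and 44.9 CPM in dorsal libraries. It was higher ventrally in 11 of 12 animals, with a log2 fold change of 0.18 ± 0.05 (edgeR adjusted p = 0.00444). Tet3 had 24.6, 27.3 and 33.3 CPM in ventral libraries, against 29.8, 33.6 and 38.7 CPM in dorsal libraries. It was lower in 12 of 12 animals (-0.27 ± 0.05, edgeR adjusted p = 0.000168). Dnmt3a, at -0.04, was not called, and nor were Tet1 and Tet2. Of the 6 MBD genes, Mbd2 (-0.22 ± 0.04), the glycosylase gene Mbd4 (-0.25 ± 0.07) and Mbd6 (-0.21 ± 0.06) fell and 0 rose.

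**Figure D4:**
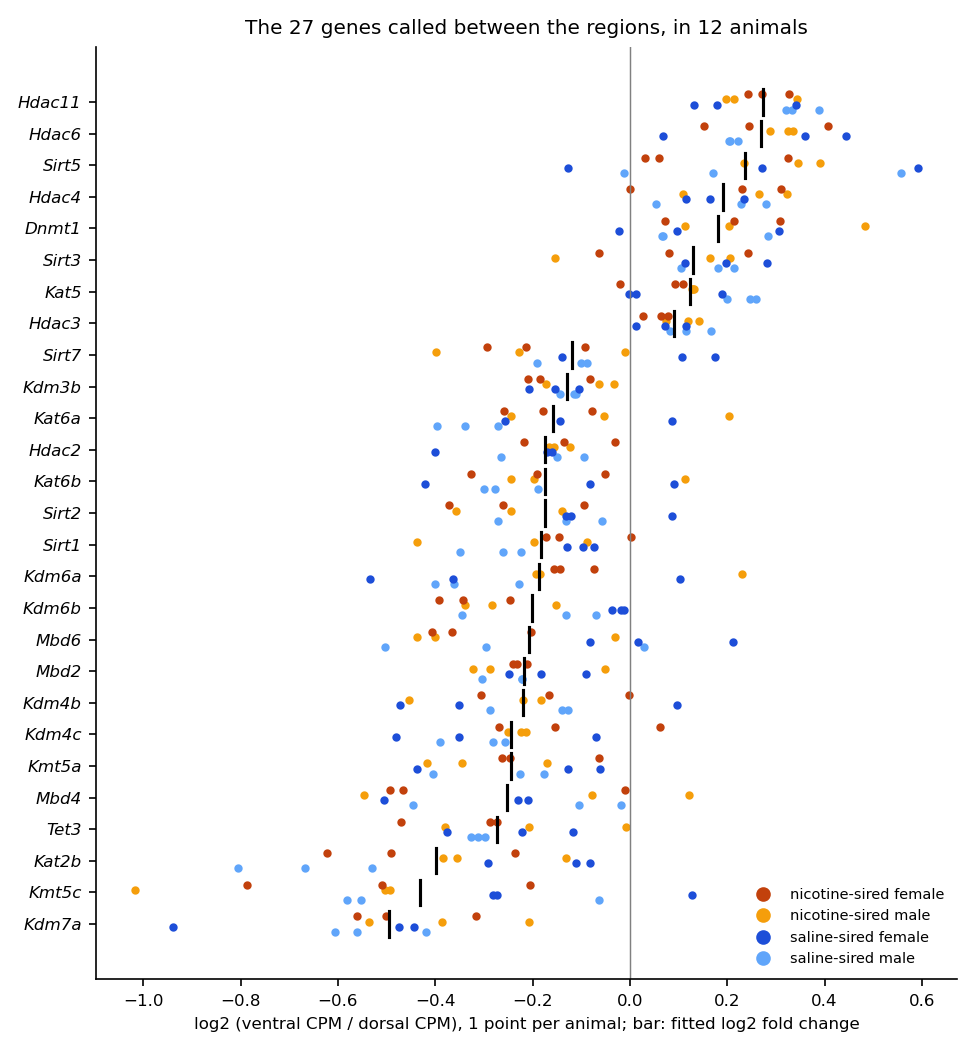
Log2 ratio of ventral to dorsal CPM in each of 12 animals for the 27 members called between the regions, coloured by sire treatment and sex, with the fitted log2 fold change as a bar. The points of Kdm7a, Hdac11, Hdac6, Kat2b, Tet3, Kmt5a, Mbd2, Hdac4, Hdac2, Kdm6b, Hdac3 and Kdm3b all lie on 1 side of 0.

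With the animal as a block 35 members were called, the 27 and also Hdac1, Hdac5, Hdac10, Kmt2b, Kmt2c, Kmt2e, Kmt5b and Setd7. The share of all genes called is not given for this fit or the refits below, so their counts have no background. Cell type markers moved between the regions too: all 8 oligodendrocyte genes were lower ventrally, with a summed level of 3561 to 4895 CPM in ventral libraries, against 4984 to 9157 CPM in dorsal libraries. Of the choroid plexus genes 9 of 10 were lower (162.4 to 2796 CPM summed, against 206.8 to 7432 CPM), and of the dentate granule cell genes 4 of 5 (225.8 to 354.5 CPM summed, against 314.1 to 535.4 CPM). Every marker of these 3 lists had counts in all 24 libraries, and the part of these cells in the regional differences was not tested. Without the 8 libraries rich in choroid plexus, which leaves 6 dorsal and 10 ventral libraries, 13 members passed: Hdac11 and Hdac6 higher, and Kdm7a, Kat2b, Tet3, Kmt5c, Kmt5a, Kdm4c, Kdm4b, Kdm6b, Mbd2, Hdac2 and Sirt1 lower. Without both libraries of the saline-sired C animals 22 members passed, 8 higher and 14 lower. In refits without 1 animal, 21 of the 27 were called in 12 of 12, and Kat6a, Sirt3, Sirt7, Kat6b, Mbd6 and Kdm6a in 3, 4, 5, 6, 8 and 8. Of the 27, Hdac4 shares 3536 bp of exon with genes on the opposite strand, Kdm3b 3468 bp, Sirt3 760 bp, Hdac11 690 bp and Kat5 426 bp. The rest of the 27 share less or none. Among members called for sire treatment, Kmt2a shares 378 bp and Mbd5 136 bp. The strand setting of the counting is not given, so these levels are uncertain.

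Between the sexes the called members were the sex-linked demethylase genes. In the dorsal hippocampus 3 of 71 were called, X-linked Kdm6a and Kdm5c higher and Y-linked Kdm5d lower in females, against 0.183% of all genes (0.0627% higher and 0.12% lower). Kdm6a removes methyl groups from histone H3 and is known to escape X inactivation in mice. It had 17.9, 20.5 and 22.3 CPM in dorsal libraries of females (lowest, median, highest), against 13.2, 14.97 and 17.7 CPM in those of males. The ranges did not overlap, and the log2 fold change was 0.44 ± 0.06 (edgeR adjusted p = 0.00996), called in 12 of 12 refits without 1 library. In the ventral hippocampus it had 14.0, 18.7 and 20.2 CPM in females, against 11.6, 12.9 and 16.96 CPM in males. There the ranges overlapped, at 0.43 ± 0.10 on the log2 scale, and Kdm6a did not pass (edgeR adjusted p = 0.0903).

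Kdm5c, an H3 demethylase gene that also escapes X inactivation, had 50.6, 56.2 and 58.6 CPM in dorsal libraries of females, against 40.5, 44.8 and 51.8 CPM in those of males. The ventral levels were 51.3, 52.8 and 58.1 CPM in females, against 38.0, 44.9 and 48.4 CPM in males. Ventrally the sexes did not overlap, and dorsally saline-sired male C reached above the lowest females. The log2 fold change was 0.28 ± 0.05 dorsally (edgeR adjusted p = 0.0363) and 0.30 ± 0.06 ventrally (edgeR adjusted p = 0.0366), where 2 members were called, against 0.291% of all genes. These calls held in 3 of 12 refits without 1 library dorsally (without nicotine-sired female A, saline-sired female B or saline-sired male C) and 2 of 12 ventrally (without nicotine-sired female A or nicotine-sired male A), with edgeR adjusted p up to 0.157 and 0.139. The dorsal call was lost when the antisense ratio entered the fit (0.26, edgeR adjusted p = 0.301) and with scaling by library totals only (0.27, edgeR adjusted p = 0.11). Ventrally these fits gave 0.31 (edgeR adjusted p = 0.94) and 0.29 (edgeR adjusted p = 0.0948), and the fit with choroid plexus markers 0.28 (edgeR adjusted p = 0.181). The ventral antisense ratio nearly marks the nicotine-sired males, so the call lost with that covariate says little.

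Kdm5d, the Y-linked counterpart of Kdm5c, had 0 counts in the 6 dorsal libraries of females, against 371 to 594 counts per library in males. Its ventral counts were 0 to 2 per library in females, 3 in sum, against 351 to 560 in males. The males held 11.5 CPM dorsally and 11.3 CPM ventrally when pooled, and 3 counts over the dorsal female libraries would be 0.0128 CPM. Uty, the Y-linked counterpart of Kdm6a and not a member, had 1 count in females and 2038 in males dorsally. Per kb of exon, Kdm5d stood below Kdm5c in every male library. The other X-linked members, Hdac6 and Hdac8, were not called between the sexes by edgeR.

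**Figure D5:**
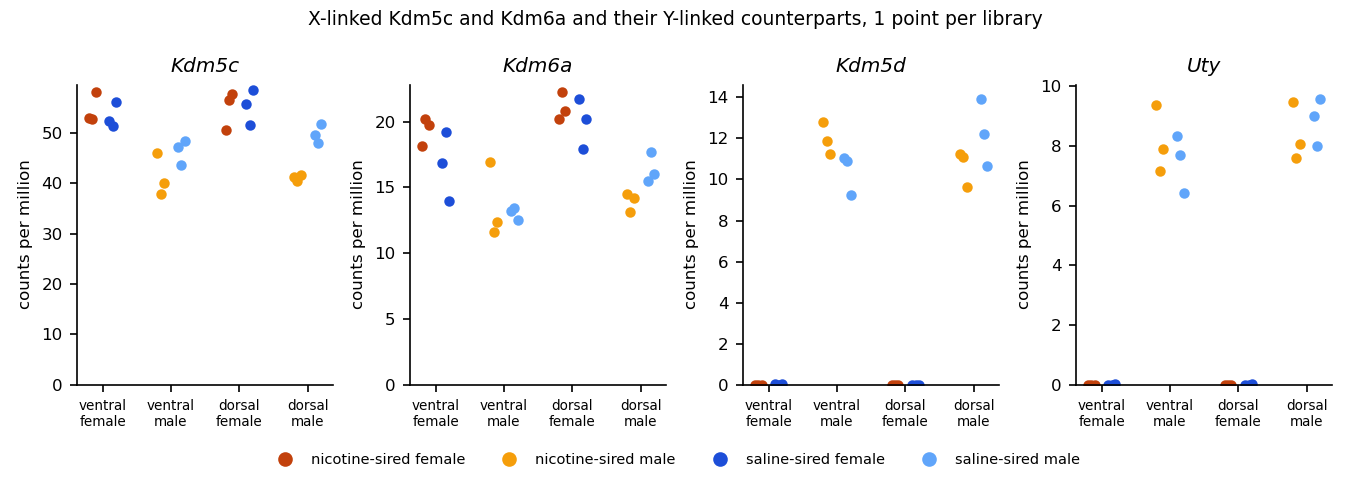
CPM of Kdm5c, Kdm6a, Kdm5d and Uty by region and sex, females left of males, 1 point per library coloured by sire treatment and sex. Dorsal Kdm6a lies at 17.9 to 22.3 in females, against 13.2 to 17.7 in males, and Kdm5d and Uty are at or near 0 in females.

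The promoters of the X and Y copies are shown side by side with CG pairs in capitals, as RefSeq windows of 300 bases on GRCm38.p6, chrX:152232977-152233276 (plus) and chrY:897538-897837 (plus).
Kdm5c: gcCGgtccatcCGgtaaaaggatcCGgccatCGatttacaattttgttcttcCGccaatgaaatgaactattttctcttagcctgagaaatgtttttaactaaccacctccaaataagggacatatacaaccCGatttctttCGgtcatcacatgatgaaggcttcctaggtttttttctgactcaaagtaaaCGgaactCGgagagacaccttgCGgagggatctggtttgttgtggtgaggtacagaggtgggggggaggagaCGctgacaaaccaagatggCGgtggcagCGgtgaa
Kdm5d: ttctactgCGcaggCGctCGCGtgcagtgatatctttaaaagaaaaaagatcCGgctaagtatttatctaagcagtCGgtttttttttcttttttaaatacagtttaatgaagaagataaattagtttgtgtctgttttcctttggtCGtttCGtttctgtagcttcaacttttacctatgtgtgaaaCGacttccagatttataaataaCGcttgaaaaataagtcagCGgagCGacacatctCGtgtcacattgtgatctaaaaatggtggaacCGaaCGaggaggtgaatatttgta
The Kdm5c window holds 13 CG pairs and 47.0% G and C, and the Kdm5d window 15 CG pairs and 36.7%.

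Partner genes outside the family were described through 8 lists with 166 genes tested dorsally and jointly, from polycomb subunits to the methyl donor cycle. Between the regions 23 were higher and 44 lower ventrally (40.4%, against 29.2% of all genes). Polycomb genes had 2 higher and 9 lower of 27, with the largest support for Pcgf2 (0.43 ± 0.07, edgeR adjusted p = 0.0001), Phc2 (-0.19 ± 0.03, edgeR adjusted p = 0.000255) and Bmi1 (-0.26 ± 0.05, edgeR adjusted p = 0.000526). Subunits of deacetylase and demethylase complexes had 4 higher and 10 lower of 30, among them the NuRD genes Mta2 (-0.27 ± 0.04) and Chd5 (0.50 ± 0.07). Of 11 other demethylase genes 5 were lower and 0 higher, including Jmjd1c (-0.35 ± 0.06) and Hr (-0.73 ± 0.17). Other histone methyltransferases had 8 higher and 5 lower of 25, with Dot1l at -0.41 ± 0.05, Smyd1 at 0.87 ± 0.13 and Smyd5 at 0.19 ± 0.03. Other acetyltransferases had 2 higher and 4 lower of 19, with Ncoa3 at -0.27 ± 0.04, Brpf3 at 0.25 ± 0.04 and Brpf1 at -0.29 ± 0.04.

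Of 17 tested methylation readers and demethylation genes 2 were higher and 3 lower, with the isocitrate dehydrogenase gene Idh1 at 0.43 ± 0.05, Cxxc4 at 0.64 ± 0.09 and the glycosylase gene Tdg at -0.24 ± 0.04. Of 15 partners of the MLL methyltransferases 1 was higher (Dpy30, 0.16 ± 0.04) and 2 lower (Hcfc2, -0.23 ± 0.04, and Rbbp5, -0.11 ± 0.04). The methyl donor cycle had 4 higher and 7 lower of 23, with the nicotinamide methyltransferase gene Nnmt at 1.65 ± 0.15 and Acly at 0.17 ± 0.04.

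For sire treatment few partners were called. In dorsal males 0 were higher and 2 lower (1.2%, against 1.78% of all genes): the methyltransferase gene Prdm2 (-0.36 ± 0.06, edgeR adjusted p = 0.018) and Bod1l (-0.36 ± 0.07, edgeR adjusted p = 0.0309). In ventral males 3 were called (1.82%, against 3.21% of all genes). Gadd45b, a stress-inducible gene linked to DNA demethylation, rose (0.46 ± 0.09, edgeR adjusted p = 0.0134), and Uhrf2 (-0.33 ± 0.08) and Rbbp5 (-0.31 ± 0.07) fell, with edgeR adjusted p of 0.03 and 0.0306. The treatment difference of Gadd45b differed between females and males dorsally (-0.65 ± 0.15, edgeR adjusted p = 0.0442) and ventrally (-0.82 ± 0.13, edgeR adjusted p = 0.00945), as did that of Mthfd1l dorsally (-0.92 ± 0.16, edgeR adjusted p = 0.0185). These were 1.2% of partners dorsally, against 2.24% of all genes, and 0.606% ventrally, against 1.07% of all genes. Averaged over both sexes and in females, 0 partners were called by edgeR in either region.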

How the data were processed

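RNA from frozen dorsal and ventral hippocampus was sequenced from stranded mRNA libraries in 3 HiSeq2500 lanes (single-end, 150 bp), per the labels' protocols. The authors deposited raw read counts for 51912 Ensembl genes, 1 column for each of 24 libraries. Cufflinks, Cuffdiff 2.2.1.3, TopHat2 2.1.0 and the builds GRCm38 and mm10 appear in the submitters' processing notes. How reads were counted, and with which strand setting, is not given in the sources used here. Symbols, strand and exon lengths came from GENCODE release M21 (51633 gene identifiers matched), and promoter windows from RefSeq GRCm38.p6.

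Tests on the deposited counts used edgeR 4.0.16 under R 4.3.3, with limma 3.58.1: filterByExpr, TMM, robust two-sided quasi-likelihood F test, and Benjamini-Hochberg adjustment over all genes at 0.05. Each region was fitted apart with 4 groups of 3 (19130 dorsal and 19224 ventral genes). Region, and treatment by region, came from a joint fit (24 libraries, 19849 genes). It had no animal term, so both regions of a mouse entered as separate libraries. Common biological coefficients of variation were 0.16, 0.118 and 0.14. Alternatives were other scaling, no low-count filter, DESeq2 1.42.0, a replicate block, covariates, the spread of all libraries and leaving out each animal. The fits without choroid-rich libraries, without the saline-sired C animals and without the 3 dorsal libraries of high antisense ratio were chosen after seeing the data, as was the split by length. The procedure was run on simulated data with changes larger than those of the members called for sire treatment in males. That run therefore says little of the power at their size. Figures were drawn with matplotlib 3.10.9.

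Members and partner lists were chosen with earlier results of these data known. Named were members called in a comparison (beyond 12, the 12 of smallest p), the 3 of smallest p where under 3 were called, a set of well-studied members, the 5 highest and 5 lowest per length, and up to 3 called genes per partner list. Others were named after their values were seen. Some genes of the partner lists are counted but not reported by name here. Both regions of an animal pair by design: over 12 pairs the median correlation of deviations from group means was 0.155 (-0.0755 to 0.528), and 9 were over 0.1. Letters shared across groups mark different animals. The CPM given for 3 counts of Kdm5d covers counting error only. The SE of a fold change also holds the spread between libraries.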

Additional observations from a re-analysis of the deposited data

Results flagged for a closer look

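The difference between sire treatments differed between the sexes for 4 combinations of member and region. The test was edgeR's quasi-likelihood test of that difference, Benjamini-Hochberg adjusted. The dorsal and ventral results for Kat7 come from the same animals and are not separate observations. Each group has its own title number, so a shared sire or litter cannot be told apart from treatment and sex. The difference of log2 fold changes, females minus males, was 0.47 for Kmt2d, 0.36 for Kat7 and 0.82 for Kat2b in the dorsal hippocampus, and 0.44 for Kat7 in the ventral hippocampus. With the antisense ratio as a covariate the dorsal differences passed the test, at 0.46 for Kmt2d (edgeR adjusted p = 0.0331), 0.36 for Kat7 (0.0498) and 0.85 for Kat2b (0.0498). The ventral value of Kat7 was then 0.48, with an edgeR adjusted p = 0.53. Ventrally the ratio nearly marks the nicotine-sired males, so the lost call of Kat7 says little. Without the 3 dorsal libraries of high antisense ratio, 1 dorsal library of nicotine-sired males and 2 of saline-sired males are left, so the lost calls there say little. The values were 0.41 for Kmt2d, 0.32 for Kat7 and 1.01 for Kat2b (edgeR adjusted p = 0.18, 0.234 and 0.149).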

How the results depend on the processing

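The number of members called stayed 0 under every alternative run for both sexes together, females and treatment by region. For dorsal males the 4 became 10 with DESeq2, 10 with library totals only, 2 with the replicate block, 0 with the antisense covariate and 0 without the 3 dorsal libraries of high antisense ratio. That last fit leaves 1 dorsal library of nicotine-sired males, assumed to vary like the other groups, and 2 of saline-sired males, so its lost calls say little; the log2 fold changes were 0.25 for Hdac3, -0.49 for Kmt2a, -0.28 for Kmt2d and -0.25 for Mbd5. Ventral males (1) gave 3 with DESeq2, 2 with the spread of the joint fit, and 0 with the antisense covariate, library totals only or no low-count filter. For the dorsal difference between the sexes (3) the counts were 9 with DESeq2, 6 with library totals only, 5 with the joint spread, 1 with the replicate block and 0 in the same fit with 1 library of nicotine-sired males, where the differences were 0.41 for Kmt2d, 0.32 for Kat7 and 1.01 for Kat2b. The ventral one (1) gave 3 with DESeq2, 2 with the joint spread, and 0 with the replicate block, either covariate or library totals only. Female over male ventrally (2) gave 4 with DESeq2, no filter or the joint spread, and 1 with either covariate or library totals only. Dorsally, Kdm5c lost its call with the antisense covariate, library totals only or the replicate block. Ventral over dorsal (27) gave 13 without the 8 choroid-rich libraries, and 35 with the animal as the replicate block. The cause of these shifts was not tested, but some of the fits have fewer samples. The share of all genes called is not given for these alternatives, so the counts of members have no background. Leaving out 1 replicate gave 0 to 9 in dorsal males (9 without nicotine-sired female A, and 0 without male B or C of either sire treatment), 0 to 4 in ventral males, 0 to 6 and 0 to 3 for the dorsal and ventral difference between the sexes, 2 to 3 and 1 to 3 for sex, and 22 to 29 for region. No value of a called member changed sign under any alternative run. The letter block pairs different animals, so a call it ends says nothing of the effect. Ventrally the antisense ratio nearly marks the nicotine-sired males, so a call ended there by that covariate says little. With 3 libraries a group, the treatment calls lie close to the threshold, and low members such as Setd4 and Setdb2 vary most.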
